A study of Sus scrofa with 6 samples.

Results

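The 6 arrays of this series were grouped by the level of HOXA7 measured on them, not by their labels. The rule put an array in one set when its HOXA7 probe set read above 7 log2 units and in the other when it read below 7. It chose 3 of the 6 arrays for the set above 7, those labelled mandibular 2, tibial 1 and tibial 2. The other 3, labelled mandibular 1, mandibular 3 and tibial 3, made the set below 7. Each set therefore held arrays of both labelled sites.

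The RNA came from primary cultures of porcine mesenchymal stem cells, the adherent stromal cells that grow out of bone marrow. Marrow had been drawn for 3 cultures from the mandibular symphysis, where both sides of the lower jaw meet, and from the tibia for 3. All donors were female American Yorkshire pigs 4 months old, and all cultures were at passage 0. Whole marrow was plated on flasks in alpha-MEM with FBS, and the labels name no sorting step. According to the design text 3 pigs were used, but no label ties a replicate number to a pig. Arrays of the same pig are not independent of each other.

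HOX genes encode homeodomain transcription factors that lie in the clusters HOXA, HOXB, HOXC and HOXD and give cells of trunk and limb their position along the body axis. The skeleton of the jaw forms from cranial neural crest cells that do not use HOX genes, and cells of adult bone are known to keep the HOX pattern of the place where they arose. ALX1 and LHX8 are homeodomain factors of the facial mesenchyme. ALX1 is needed for the midface, and LHX8 acts in the palate, the teeth and forebrain neurons.

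Levels are deposited log2 values from whole-transcript arrays, on which 1 unit is a 2-fold difference. The deposited values carry no detection call, so a low level cannot be told from background. The lower quartile of an array lay between 3.86 and 3.94. Because the sets were chosen on values of these same arrays, no gene was tested between them. A gene was counted as not overlapping when its 3 values in one set all lay beyond its 3 values in the other. The separation is the gap between the nearest values of the 2 sets, given as negative when the set above 7 was the lower one.

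HOXA7 itself read 8.40 on mandibular 2, 8.01 on tibial 1 and 7.92 on tibial 2. On the other arrays it read 5.89 for tibial 3, 5.26 for mandibular 1 and 5.23 for mandibular 3. The arrays nearest the threshold were tibial 2 from above and tibial 3 from below, and the gap of 2.03 units between them equals a 4.09-fold difference. Of the 10877 genes with a probe set of their own symbol, 1094 did not overlap and were higher above 7, which is 10.1% of the genes. A further 1300, or 12.0%, did not overlap and were lower above 7. A separation of at least 1 unit was present for 71 genes higher above 7 (0.653%) and for 23 genes lower above 7 (0.211%). With the arrays arranged by labelled site in the same way, 701 genes did not overlap (6.44%), and none reached a separation of 1 unit (0.0%).

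The rule placed the array labelled mandibular 2 in a set with tibial 1 and 2, and the array labelled tibial 3 in a set with mandibular 1 and 3. The 94 genes at least 1 unit apart were counted by that same division, so they are no further evidence of where these arrays belong. With both of those arrays left out, the remaining 2 mandibular and 2 tibial arrays had 293 genes at least 1 unit apart, a comparison chosen after seeing the data. Sets of 2 separate more easily than sets of 3 by construction. Grouping the arrays by LHX8 gave the same sets of 3. Any gene with a wide gap between the sets must return them, so this is no further evidence either.

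The pairs of arrays were not equally alike within the sets. Within the set below 7, a pair of arrays had between 67 and 152 genes at least 1 unit apart. Within the set above 7 the range was 373 to 554, and between the sets it was 424 to 929. The closest pair was mandibular 3 with tibial 3, at 67 genes. Mandibular 2 differed from tibial 1 at 554 genes and from tibial 2 at 440, against 463 for mandibular 1, 424 for mandibular 3 and 446 for tibial 3. By this count its distance to tibial 2 was within the range of its distances to the set below 7, and its distance to tibial 1 was above that range. By Pearson correlation over all probe sets, mandibular 2 was closest to tibial 2 (0.9836) and furthest from tibial 1 (0.9781). Its correlations with the set below 7 lay close by, at 0.9802 to 0.9830.

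**Figure D1:**
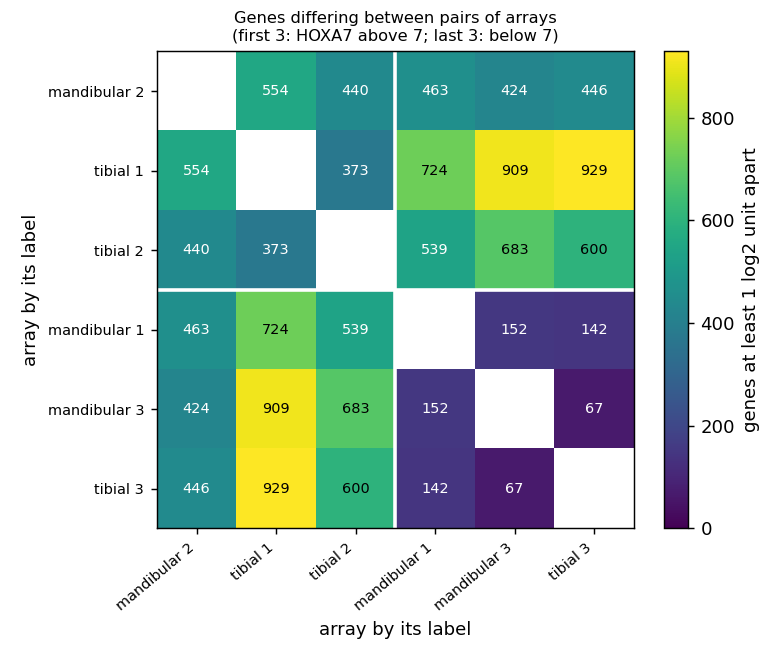
Number of genes at least 1 log2 unit apart for each pair of arrays; rows and columns are the 6 arrays by label, the set above 7 first, and the colour scale gives the number of genes. The 3 pairs within the set below 7 have 67 to 152 such genes, and the 3 pairs within the set above 7 have 373 to 554.

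The cell types of the cultures were checked by their markers. The mean over 6 stromal markers lay between 10.89 and 11.29 on the 6 arrays. Of these, THY1 was at 10.50 to 10.70, while NT5E ran from 7.05 to 9.13 and did not overlap between the sets. For macrophage markers the mean over 11 measured genes was 5.09 on mandibular 1, 5.17 on mandibular 3 and 5.77 on tibial 3, against 6.64 on mandibular 2, 8.52 on tibial 2 and 9.14 on tibial 1. Of these 11 genes, 10 did not overlap and were higher above 7, against 10.1% of all genes. In cultures of mixed cells, fewer cells of a type and less RNA per cell cannot be told apart.

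HOX genes are no independent evidence for the grouping, and their levels are given as a description. A list of 52 HOX symbols, not all of which name an existing gene, was searched, and 27 genes were measured. Of these 27, 6 stayed under 5 units on every array. In the HOXA cluster 7 of 8 measured genes did not overlap, and in the HOXD cluster 6 of 7 did not, all of them higher above 7. Of all genes 10.1% did not overlap and were higher above 7, and 12.0% were lower. None of the 8 HOXB and 4 HOXC genes separated the sets, and for so few genes those shares amount to little. Of the HOXB genes none varied over the 6 arrays by more than 0.62 units, and the HOXC genes by no more than 0.66.

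HOXA9, a neighbour of HOXA7 in the cluster, followed the same division with levels of 6.97 on mandibular 2, 6.67 on tibial 1 and 7.37 on tibial 2. It read 4.41 on mandibular 1, 4.35 on mandibular 3 and 5.10 on tibial 3. The sets were 1.57 units apart. HOXA5, which acts in the patterning of the neck and upper trunk, read 6.60, 6.28 and 7.07 on mandibular 2, tibial 1 and tibial 2. On mandibular 1, mandibular 3 and tibial 3 it read 4.61, 4.76 and 4.84, for a separation of 1.45.

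Genes toward both ends of the cluster had smaller gaps. HOXA11, which patterns the forearm and lower leg, was at 5.28 on mandibular 2, 5.48 on tibial 1 and 5.38 on tibial 2, against 3.97, 3.92 and 4.40 on mandibular 1, mandibular 3 and tibial 3. Its separation was 0.88. HOXA13, a gene of the hand and foot, was separated by 0.31, HOXA4 by 0.24 and HOXA3 by 0.21, while HOXA2 overlapped. Of the 8 HOXA genes, the 3 named HOXA5, HOXA7 and HOXA9 were at least 1 unit apart and higher above 7, against 0.653% of all genes.

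In the HOXD cluster, HOXD8 read 6.74 on mandibular 2, 6.85 on tibial 1 and 6.52 on tibial 2. The other set had it at 4.82 on mandibular 1, 4.74 on mandibular 3 and 5.30 on tibial 3, a separation of 1.22. HOXD10, a gene of the limb and lower trunk, read 6.26, 6.74 and 6.52 in the set above 7 and 4.41, 4.56 and 4.85 in the set below 7. Its separation was 1.40 by the probe set with the highest mean and 0.55 by the probe set with the lowest. HOXD3, HOXD13 and HOXD11 were separated by 0.42, 0.39 and 0.09. The gap of 0.01 for HOXD1 was lost once the arrays were centred on their medians, and HOXD12 overlapped.

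**Figure D2:**
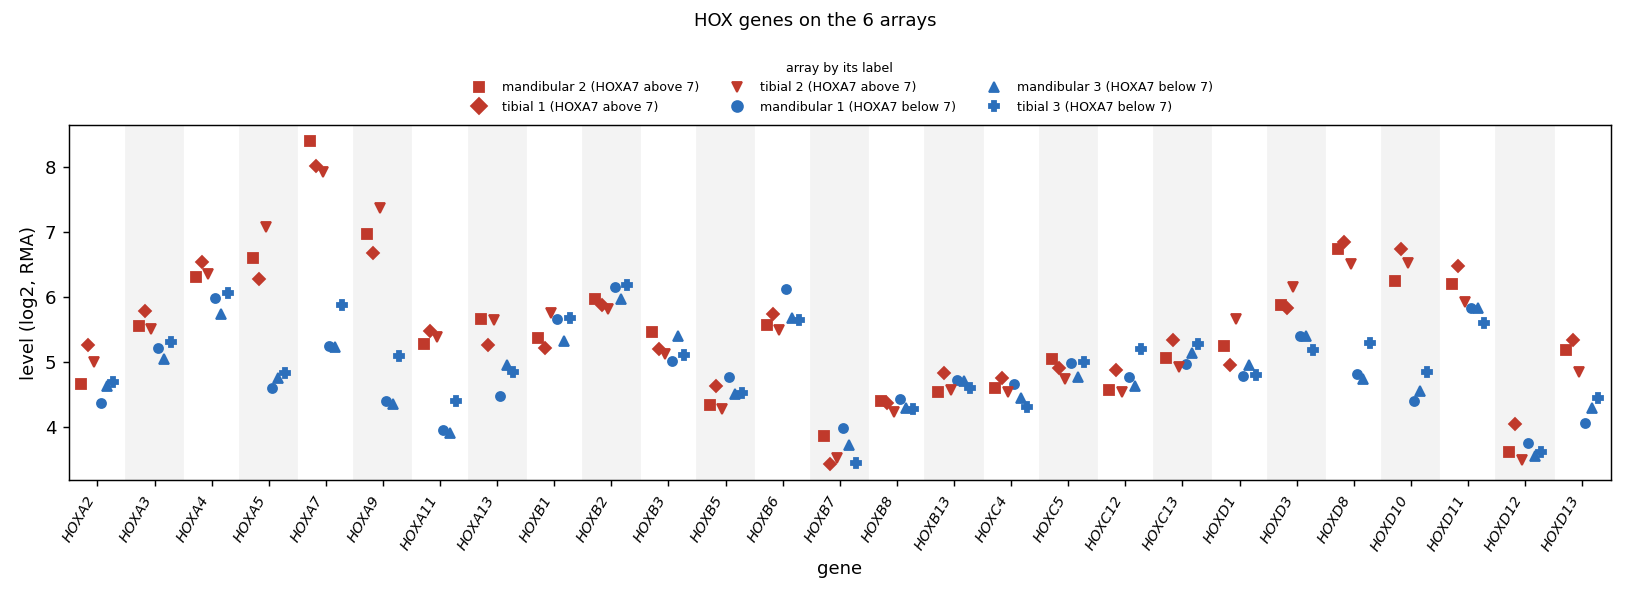
Level in log2 units of each of the 27 measured HOX genes on each of the 6 arrays; red symbols are the arrays with HOXA7 above 7, blue symbols those below 7, and the shape gives the label. Red and blue symbols are apart for HOXA5, HOXA7, HOXA9, HOXD8 and HOXD10 and intermingle for the HOXB and HOXC genes.

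The protein-coding genes beside the clusters were read from the order of genes in the RefSeq annotation of Sscrofa11.1, 4 on each side of each cluster, of which 22 were measured. Of these neighbours, 2 did not overlap and were higher above 7, and 4 did not overlap and were lower, against 10.1% and 12.0% of all genes. One was at least 1 unit apart. This was SKAP2, a signalling adaptor of immune cells that lies next to the HOXA cluster, named here after its values were seen. SKAP2 read 7.56 on mandibular 2, 7.92 on tibial 1 and 7.95 on tibial 2, against 5.97, 5.68 and 5.90 on mandibular 1, mandibular 3 and tibial 3. EVX1, at the opposite end of the cluster, lay between 5.74 and 6.01 on every array.

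Cofactors that bind DNA together with HOX proteins were lower above 7 where they separated at all. Of 6 measured, 3 did not overlap, against 12.0% of all genes, with separations of -0.19 for PBX4, -0.03 for PBX3 and -0.03 for MEIS2.

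Among 22 measured transcription factors of the face and skull, 4 did not overlap and were higher above 7 and 7 did not overlap and were lower, against 10.1% and 12.0% of all genes. ALX1 and LHX8 had the largest separations of all genes that were lower above 7. ALX1 read 3.86 on mandibular 2, 3.90 on tibial 1 and 3.54 on tibial 2, levels at or near the lower quartile of the arrays. On mandibular 1, mandibular 3 and tibial 3 it read 8.08, 7.44 and 7.97. The gap was 3.54 units, and no fold is given against levels that cannot be told from background.

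LHX8 read 3.70 on mandibular 2, 4.77 on tibial 1 and 4.10 on tibial 2, and 8.26, 8.25 and 8.67 on mandibular 1, mandibular 3 and tibial 3. Its separation was 3.48 units. For both genes the array labelled tibial 3 lay with the 2 mandibular arrays of its set, and it had the highest LHX8 level of the 6.

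PAX9, a factor of tooth, palate and vertebra, was the other factor in this list at least 1 unit apart. It read 5.78 on mandibular 2, 5.01 on tibial 1 and 5.75 on tibial 2 against 7.35, 7.35 and 7.80 on mandibular 1, mandibular 3 and tibial 3. MSX1, which acts in teeth and jaw, was lower above 7 with a separation of 0.87, at 5.76, 5.67 and 5.85 against 7.58, 7.28 and 6.72. TFAP2A, a neural crest factor, did not divide the arrays into 2 even sets. It read 5.82 on tibial 1 and 6.44 on tibial 2 but 7.62 on mandibular 2, nearer to the 8.24 to 8.39 of the set below 7, and its separation of 0.62 grew to 1.80 without mandibular 2. BARX1, a factor of the proximal jaw and stomach, went the other way, at 7.45, 6.37 and 6.63 above 7 and 5.91, 5.80 and 5.65 below.

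Endothelin signalling through EDNRA, DLX factors and HAND2 sets up the lower jaw in the embryo. Of 13 measured genes of this axis, 4 did not overlap and were higher above 7, and 3 were lower (all genes, 10.1% and 12.0%). HAND2, the factor at the ventral end of the axis, read 4.43 on mandibular 2, 4.81 on tibial 1 and 4.12 on tibial 2. It read 7.17, 6.44 and 6.04 on mandibular 1, mandibular 3 and tibial 3, a separation of 1.23. The endothelin receptors lay in the opposite direction. EDNRA was at 8.40, 9.02 and 8.26 above 7 and at 7.28, 7.03 and 7.04 below, with a separation of 0.98.

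EDNRB varied more, at 9.56 on tibial 1, 7.27 on tibial 2 and 5.16 on mandibular 2. The set below 7 had it at 3.08, 3.45 and 3.58, so that mandibular 2 lay between the tibial arrays of its set and the rest. Without mandibular 2 the separation of 1.58 became 3.70. DLX1 was lower above 7 by a separation of 0.11, and ECE1, the enzyme that activates endothelins, was higher by 0.20.

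Of 21 measured genes of limb and trunk identity, 5 did not overlap and were higher above 7, and 4 were lower, where all genes gave 10.1% and 12.0%. GATA6, a factor of heart, gut and limb mesenchyme, read 7.76 on mandibular 2, 7.37 on tibial 1 and 6.27 on tibial 2. Below 7 it read 4.32, 4.81 and 4.51 on mandibular 1, mandibular 3 and tibial 3. TBX15, a T-box factor of limb and trunk skeleton, was even within the sets, at 8.97, 8.96 and 9.21 above 7 and 7.06, 7.78 and 7.81 below. TBX18, a T-box factor of somite and limb mesenchyme, read 8.11, 8.40 and 8.71 above 7 and 5.87, 6.88 and 7.04 below.

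These 3 factors had separations of 1.46, 1.16 and 1.06. Not every gene of this list was higher above 7. TBX3, a T-box factor of limb and jaw, was at 7.17 on mandibular 2, 5.36 on tibial 1 and 6.30 on tibial 2 and at 8.01 to 8.11 in the set below 7. SALL1 and EMX2 were also lower above 7, with separations of 0.66 and 0.44.

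**Figure D3:**
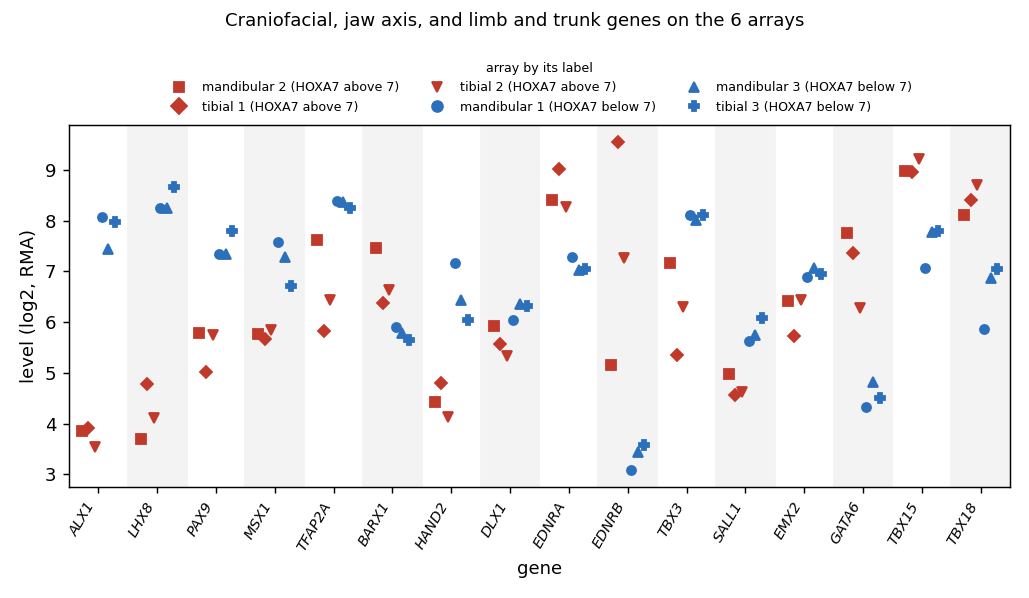
Level in log2 units of 16 genes of the face, the jaw axis and the limb and trunk on each of the 6 arrays, with red symbols for HOXA7 above 7, blue for below 7 and the shape giving the label. ALX1 and LHX8 have the widest gaps, of 3.54 and 3.48 units, and EDNRB has the widest spread within the set above 7.

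Of all genes, HOX genes included, LPL had the largest separation. LPL, the lipoprotein lipase of fat, muscle and macrophages, read 9.45 on mandibular 2, 10.99 on tibial 1 and 9.07 on tibial 2. It read 4.62 on mandibular 1, 4.61 on mandibular 3 and 4.42 on tibial 3. The gap was 4.45 units. The other adipocyte genes did not follow as a group, since 3 of 18 measured did not overlap and were higher above 7, against 10.1% of all genes. Beside LPL these were the fatty acid receptor CD36, at 4.54, 9.87 and 6.62 against 2.82, 2.74 and 3.27, and the adipocyte regulator PPARG, with a separation of 0.91. Within the set above 7, CD36 had the order of the macrophage mean, and which cells gave its signal was not tested.

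Secreted modulators of WNT signalling were at both ends of the list. RSPO3, which amplifies WNT signals through LGR receptors, read 8.14, 7.79 and 8.02 on mandibular 2, tibial 1 and tibial 2 and 4.08, 4.45 and 4.03 on mandibular 1, mandibular 3 and tibial 3. Its relative RSPO2 was on the opposite side, at 3.36, 3.47 and 3.55 above 7 and 5.44, 5.41 and 6.41 below. The separations were 3.34 for RSPO3 and -1.86 for RSPO2.

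DKK2, a secreted modulator that binds WNT coreceptors, read 9.80 on mandibular 2, 8.92 on tibial 1 and 7.91 on tibial 2 and 5.29 to 5.45 below 7. SFRP1, a secreted WNT antagonist, was lower above 7 with a separation of 0.56, and TCF7L1 was higher with 0.51. Of the 31 WNT genes measured, 5 did not overlap and were higher above 7 and 2 were lower, against 10.1% and 12.0% of all genes.

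HGF and its receptor MET also stood on opposite sides. HGF, a growth factor made by mesenchyme, read 6.87 on mandibular 2, 6.73 on tibial 1 and 7.0 on tibial 2, and 3.82, 4.89 and 4.87 on mandibular 1, mandibular 3 and tibial 3. MET read 5.93, 5.40 and 5.74 on the first 3 of these arrays and 7.85, 7.87 and 8.51 on the others. The separations were 1.84 for the ligand and -1.92 for the receptor.

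In the TGFB and BMP families 6 of 29 measured genes did not overlap and were higher above 7, and 3 were lower, the latter near the 12.0% of all genes (10.1% for higher). The ligand TGFB3 read 10.05, 9.01 and 9.07 above 7 and 6.67, 8.03 and 6.70 below, with a separation of 0.98. The BMP target ID1 was lower above 7, at 7.35, 5.87 and 7.09 against 8.42, 8.95 and 8.82. SMOC1, a secreted matrix protein that modulates BMP signals and acts in eye and limb development, read 7.02, 7.07 and 7.48 above 7 and 4.35, 4.19 and 4.07 below. Noggin, encoded by NOG, a secreted BMP antagonist, was lower above 7 with a separation of 0.23.

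Matrix genes were found on either side. POSTN, the periostin of periosteum and periodontal ligament, read 5.60 on mandibular 2, 7.01 on tibial 1 and 4.50 on tibial 2. On mandibular 1, mandibular 3 and tibial 3 it read 11.89, 9.59 and 11.40. The separation was 2.58 units, and without mandibular 3 it became 4.39. DPT, which binds decorin and organises collagen fibrils, was also lower above 7, at 7.61, 5.99 and 8.10 against 9.76, 9.87 and 10.76.

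Of 25 collagens and laminins measured, 8 did not overlap and were higher above 7 and 2 were lower, against 10.1% and 12.0% of all genes. COL8A1, a short-chain collagen of vessel walls, read 11.25 on mandibular 2, 11.05 on tibial 1 and 10.79 on tibial 2 and 7.86, 8.79 and 9.27 below 7. The basement membrane genes COL4A1, COL4A2 and LAMA4 were higher above 7 with separations of 0.99, 0.59 and 0.75. COL14A1, a collagen of tendon and skin, was lower with 0.58. Among 23 matrix proteins of other families, VCAN, the large proteoglycan versican, was higher above 7 at 11.17, 11.37 and 11.30 against 9.93, 9.97 and 9.27.

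Contractile genes had small gaps at high levels. Of 14 measured genes of smooth muscle and pericytes, 7 did not overlap, all higher above 7, against 10.1% of all genes. CNN1, the actin-binding protein calponin, read 11.09, 11.01 and 11.03 above 7 and 10.16, 10.16 and 10.22 below. TPM2 and MYL9 had separations of 0.54 and 0.35. CALD1, at 0.03, overlapped once the arrays were centred on their medians.

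Genes of stromal and skeletal cell types lay in both directions. Of 19 stromal markers, 5 did not overlap and were higher above 7 and 1 was lower, against 10.1% and 12.0% of all genes. VCAM1, an adhesion molecule of marrow stroma and vessels, read 5.57 on mandibular 2, 9.52 on tibial 1 and 7.55 on tibial 2 and 4.28, 3.68 and 4.10 below 7. Within the set above 7 this was the order of the macrophage mean, and which cells gave the VCAM1 signal was not tested. NT5E, the ectoenzyme CD73, was higher above 7 with a separation of 0.27, and CD44 was lower with 0.16. Of 20 osteoblast genes 2 were higher and 2 lower, shares near those of all genes, with osteopontin (SPP1) at 11.53, 12.05 and 10.92 against 9.84, 10.25 and 9.16. Of 16 chondrocyte genes 2 were higher and 1 lower, likewise near those of all genes, with the cartilage matrix gene COMP separated by 0.71.

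**Figure D4:**
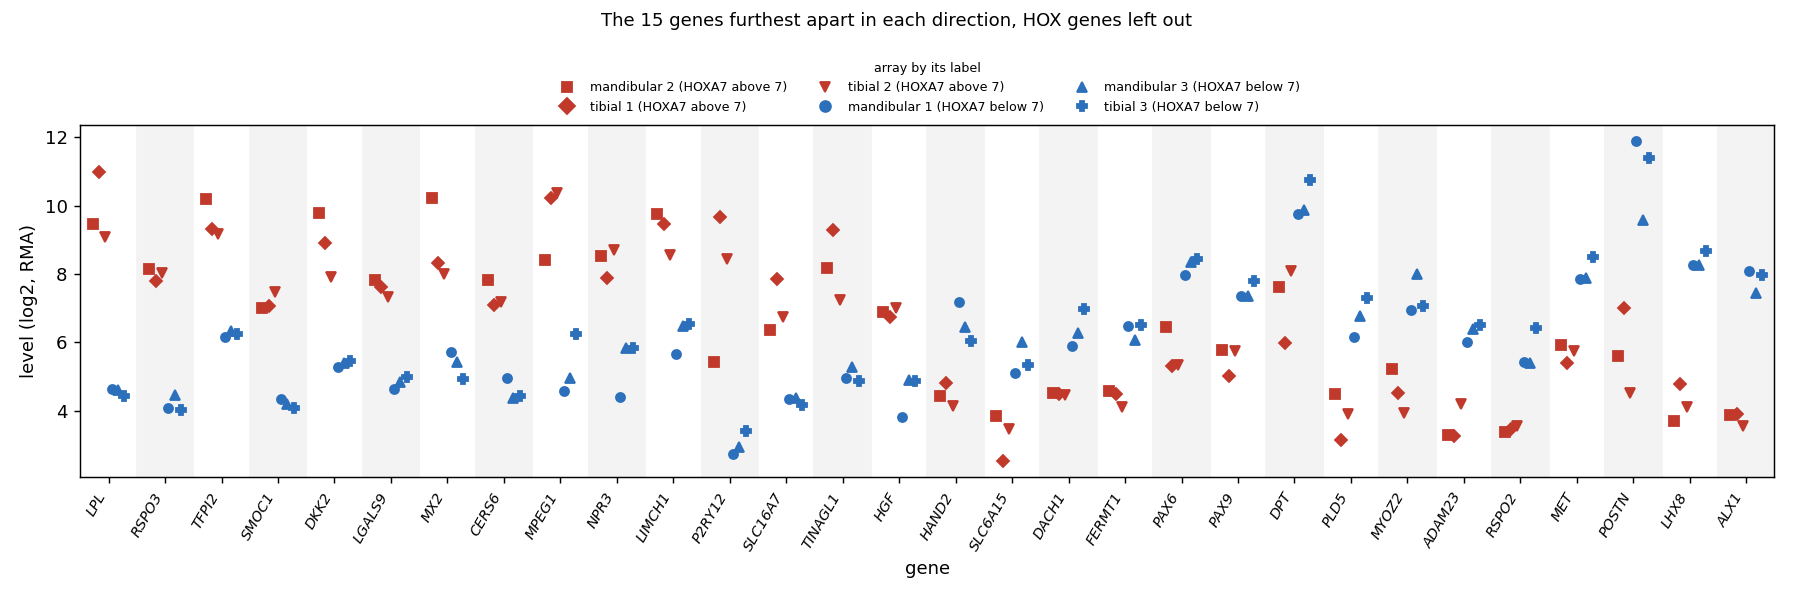
Level in log2 units, on each of the 6 arrays, of the 15 genes outside the HOX list with the largest separation in each direction; red symbols are HOXA7 above 7, blue below 7, and the shape gives the label. RSPO3 and SMOC1 are tight within both sets, while for P2RY12 and MPEG1 mandibular 2 lies below tibial 1 and tibial 2.

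The remaining genes of the 15 with the largest gaps were of mixed kinds. Higher above 7 were TFPI2, an inhibitor of proteases in the matrix, at 10.18, 9.31 and 9.17 against 6.17, 6.32 and 6.24, and the ceramide synthase CERS6 with a separation of 2.16. LGALS9, the sugar-binding protein galectin-9, had a separation of 2.35. NPR3, LIMCH1, SLC16A7 and TINAGL1 had separations of 2.03, 2.02, 1.97 and 1.97. P2RY12, with a separation of 1.99, read 5.41 on mandibular 2, 9.66 on tibial 1 and 8.43 on tibial 2. Below 7 it read 2.74, 2.93 and 3.41. Its order within the set above 7 was that of the macrophage mean. Lower above 7 were the eye and brain factor PAX6, at 6.44, 5.29 and 5.35 against 7.97, 8.37 and 8.44, and the repressor DACH1, at 4.52, 4.47 and 4.46 against 5.90, 6.26 and 6.97. ADAM23, MYOZ2, PLD5, FERMT1 and SLC6A15 had separations between -1.82 and -1.28.

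Not all of the 94 genes were even within their set. A range under 1 unit in both sets was present for 28 of the 71 genes higher above 7 and for 9 of the 23 lower. HOXA5, HOXA7, HOXA9, HOXD8, HOXD10, RSPO3, SMOC1, TBX15 and VCAN were among the 28, and ALX1, PAX9 and MET among the 9. For the 71 genes the median range was 1.07 units within the set above 7 and 0.62 units within the set below 7. Mandibular 2 lay below both tibial arrays of its set for 35 of the 71 genes and above both for 18.

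Genes of macrophages and monocytes were uneven in this way. Of 28 measured, 20 did not overlap and were higher above 7 and 1 was lower, and their median difference between the middle values was 2.74 units, against -0.03 over all genes, of which 10.1% were higher and 12.0% lower. The mean over the list was 5.91 on mandibular 2, 7.33 on tibial 2 and 8.05 on tibial 1, and 4.87 to 5.28 in the set below 7. Tibial 1 and tibial 2 were above the other 4 arrays for 26 of the 28 genes. Mandibular 2 lay between those 2 arrays and the set below 7 for 19.

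MPEG1, a pore-forming protein of macrophages, read 8.41 on mandibular 2, 10.23 on tibial 1 and 10.38 on tibial 2. Below 7 it read 4.58 on mandibular 1, 4.97 on mandibular 3 and 6.26 on tibial 3, and its separation of 2.15 became 3.98 without mandibular 2. The complement gene C1QB read 8.45, 10.87 and 10.35 against 5.55, 5.26 and 7.04. The leukocyte marker PTPRC, or CD45, was at 4.86 on mandibular 2, 7.66 on tibial 1 and 6.96 on tibial 2, and at 3.42, 3.71 and 3.91 below 7. CD86, a costimulatory molecule of antigen-presenting cells, was the exception, at 7.80, 8.44 and 7.44 above 7 and 9.85, 9.87 and 9.64 below.

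Genes of antigen presentation by MHC class II were highest on tibial 2 by their mean, at 7.41, followed by tibial 1 at 7.21 and mandibular 2 at 5.92. Of 12 measured genes, 8 did not overlap and were higher above 7 and 1, CD86 again, was lower (all genes, 10.1% and 12.0%). SLA-DRA, a chain of the porcine class II molecule, read 8.17 on mandibular 2, 9.56 on tibial 1 and 10.37 on tibial 2. It read 3.97, 4.71 and 6.64 on mandibular 1, mandibular 3 and tibial 3, so that tibial 3 was the highest of its set. Osteoclast genes were higher above 7 without overlap for 7 of 14 (10.1% of all genes), with the protease gene MMP9 at 11.13, 12.94 and 12.29 against 7.32, 7.61 and 9.47. The osteoclast phosphatase ACP5 read 5.72 on mandibular 2 but 8.23 and 8.61 on tibial 1 and 2.

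Of 22 lysosome genes 10 did not overlap and were higher above 7 (10.1% of all genes), with the protease CTSS at 6.96, 10.54 and 8.99 against 5.16, 4.50 and 5.19. Tibial 1 was the highest array for 21 of the 22. The lysosome mean was 10.21 on tibial 1, 9.41 on tibial 2 and 9.14 on mandibular 2, against 8.61 to 9.04 below 7. Of the 71 genes at least 1 unit higher above 7, 12 were in the macrophage, class II, osteoclast or lysosome lists and 40 were in no list. Those lists held 28, 12, 14 and 22 of the 10877 measured genes, some of them in more than 1 list. The lists are not complete, so a gene in no list may still be a gene of these cell types. Within the set above 7 the macrophage mean was lowest on mandibular 2 and highest on tibial 1, and HOX genes were mixed in this respect. HOXA7 was highest on mandibular 2, while HOXD10 and HOXA11 were lowest there and highest on tibial 1. Within the set below 7, tibial 3 was highest for both HOXA7 and the macrophage mean. The part of these cells in the other differences was not tested.

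Further lists had few or no genes without overlap, where all genes gave 10.1% higher above 7 and 12.0% lower. Genes of granulocytes (8 measured), endothelium (10), skeletal muscle (6) and the respiratory chain (12) had 0 without overlap. In lists this short those shares amount to few genes. The granulocyte mean was still uneven, at 5.41 on tibial 1 and 5.30 on tibial 2 against 4.48 to 4.70 on the other arrays. Of the lymphocyte list 1 of 14 was higher, the granule gene NKG7 at 6.28, 9.84 and 8.40 against 5.01, 5.0 and 5.69, and 1 was lower. The defining genes EPCAM of epithelium, HBB of red cells and CD3D of T cells lay at 3.50 to 4.02, 2.10 to 2.75 and 3.64 to 4.22 on the 6 arrays.

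Interferon-induced genes were high on 1 array rather than on a set. Of 22 measured, mandibular 2 was the highest array for 20, and the mean over the list was 7.88 there against 5.47 to 6.21 on the other 5 arrays. Without overlap, 10 were higher above 7 and none was lower (all genes, 10.1% and 12.0%). MX2, an antiviral GTPase, was the gene of this list at least 1 unit apart, at 10.21 on mandibular 2, 8.32 on tibial 1 and 7.99 on tibial 2 against 5.72, 5.42 and 4.91. IFIT3 read 8.01 on mandibular 2 and 3.64 to 5.88 elsewhere.

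Among 27 cytokines and chemokines 11 did not overlap and were higher above 7 and 4 were lower, the latter near the 12.0% of all genes (10.1% for higher). IL1A, an inflammatory cytokine, read 7.48, 6.54 and 6.38 above 7 and 4.26, 5.25 and 5.0 below. The monocyte attractant CCL8 read 6.79, 7.78 and 7.85 against 4.34, 3.88 and 5.29. CXCL8, the neutrophil attractant, was lower above 7 at 7.42, 7.71 and 7.77 against 8.45, 9.69 and 10.20.

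Genes of cell division were lower on tibial 1 and tibial 2 than on the other 4 arrays. This held for 18 of 18 measured cell cycle genes and 14 of 14 replication genes. Between the sets, 8 of the 18 did not overlap, all lower above 7, against 12.0% of all genes. Of the 14 replication genes 9 did not, all lower above 7. The largest gap of the cell cycle genes was 0.16, for CENPF, a protein of the kinetochore, at 6.96, 5.65 and 5.95 against 7.11, 7.92 and 7.37. Mandibular 2 was close to the set below 7 here, with a list mean of 7.57 against 7.51 on mandibular 1. Tibial 1 was the lowest and mandibular 3 the highest array for 18 of 18.

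Ribosomal protein genes were lower above 7 without overlap for 10 of 14 (12.0% of all genes), with a median difference of -0.19. Of 9 cholesterol genes 5 were lower (12.0% of all genes), with a median of -0.47, and SQLE, an enzyme of sterol synthesis, had a separation of 0.32. Of 17 genes of glycolysis and hypoxia 6 were higher above 7 (10.1% of all genes), with ALDOC separated by 0.64. The gaps of PDK1 and ANKRD37 in that list were lost when the arrays were centred on their medians.

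**Figure D5:**
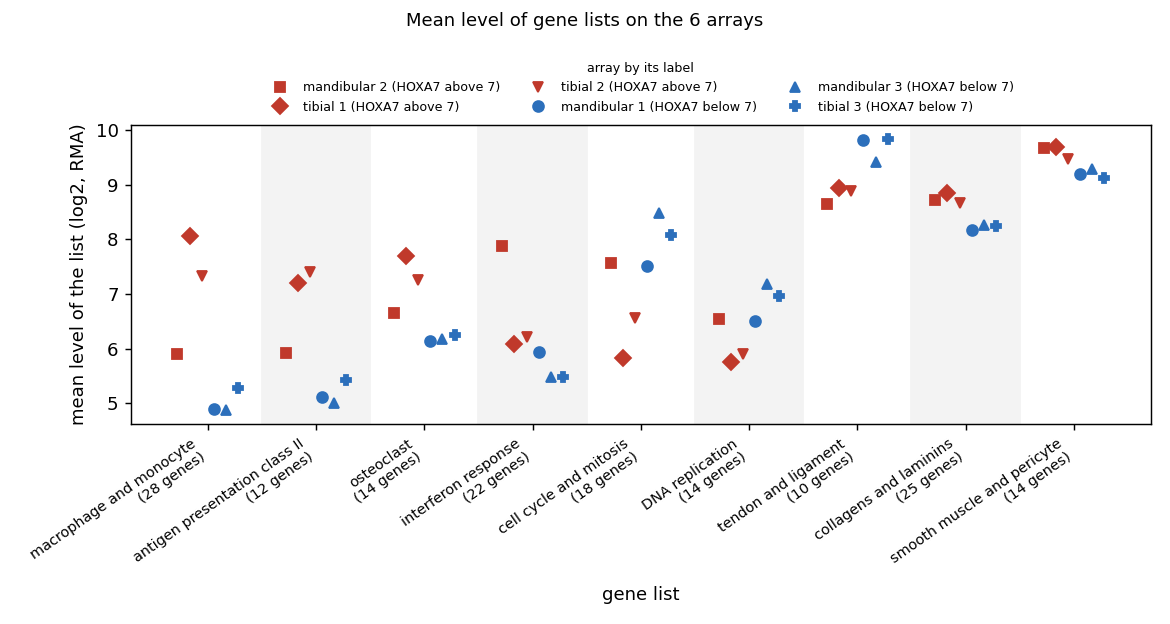
Mean log2 level of 9 gene lists on each of the 6 arrays, with red symbols for HOXA7 above 7, blue for below 7, the shape giving the label and the number of genes under each name. For macrophage genes mandibular 2, at 5.91, lies between the tibial arrays of its set and the set below 7, and for interferon genes it lies above all others at 7.88.

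The labelled site was not used to form the sets, and it could be tested. Mandibular against tibial arrays gave 0 of 27558 probe sets (0.0%) past an adjusted p of 0.05 with limma and Benjamini-Hochberg adjustment, with 836 at an unadjusted p under 0.05. A fit that also held the HOXA7 set gave 0 as well (0.0%), with 1004 at an unadjusted p under 0.05. These p-values do not count the choice of the sets, and they measure the spread between these cultures only. Without tibial 3 the test of site alone passed 2 probe sets. They were those of AQP9, a water and glycerol channel, and PLPPR4, a neuronal membrane protein, named after their values were seen.

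PLPPR4 read 5.20 on tibial 1, 5.39 on tibial 2 and 8.88 on tibial 3, against 8.79 to 9.32 on the mandibular arrays. A call without tibial 3 favours genes whose mandibular arrays lie together. The level on mandibular 2 is therefore no evidence of where that array belongs. Its difference without tibial 3 was 3.70 (SE 0.20, 3 mandibular and 2 tibial arrays, limma adjusted p = 0.0246). AQP9 read 6.06 and 6.02 on tibial 1 and 2 and 3.73 on tibial 3, against 3.47 to 3.69 on the mandibular arrays. Without tibial 1 the test passed 1 probe set, of ANXA8, a membrane-binding annexin, at 10.41 on tibial 2, 10.57 on tibial 3 and 6.99 on tibial 1. On the mandibular arrays ANXA8 read 7.53 to 7.73.

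For genes that formed or followed the sets, the values within the sets are a description, since the set in the fit takes up their variation first. Mandibular minus tibial was -0.10 (SE 0.25) for HOXA7, -0.39 (SE 0.25) for HOXA9, -0.03 (SE 0.23) for ALX1 and -0.57 (SE 0.21) for LHX8, each over 3 mandibular and 3 tibial arrays with the set in the fit. The smallest adjusted p of that fit was 0.956 in limma, shared by MPEG1, C1QC and C1QB. Those 3 were lower on the mandibular array or arrays of each set, by 1.69 (SE 0.17), 1.81 (SE 0.20) and 1.90 (SE 0.22) units. Over the macrophage list 1 of 28 genes was higher on the mandibular side, and the median difference was -1.25.

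Genes higher on the mandibular side within the sets included the ion channel TRPA1, by 1.48 (SE 0.22), the growth factor BMP4, by 0.64 (SE 0.14), and NOG, by 0.84 (SE 0.18). None of these passed the adjusted threshold in limma. TRPA1 read 6.79, 5.53 and 6.25 on mandibular 1 to 3 and 4.47, 4.07 and 4.83 on tibial 1 to 3, so its values did not overlap by label. BMP4 read 8.45, 8.08 and 8.28 on the mandibular and 7.40, 7.23 and 7.85 on the tibial arrays. For both genes mandibular 2 was the lowest mandibular array and tibial 3 the highest tibial one.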

How the data were processed

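RNA of 6 cultures was measured on 6 Affymetrix porcine arrays. The authors deposited log2 values, made with RMA in Affymetrix Expression Console and Transcriptome Analysis Console 3.0, per the submitters' processing notes. Settings and genome build were not given in the sources used here. RMA gives arrays like distributions (medians 5.63 to 5.71), so levels are relative, and the precision is limited by having 6 arrays. Of 27558 probe sets, 13157 had 1 gene symbol in the platform annotation, 523 had several and 13878 had none. After 1461 placeholder symbols were left out, 11696 probe sets named 10877 genes, each taken by the probe set with the highest mean. Probe sets with identical values (637 repeating another) were left in.

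Genes of the sets were described, not tested. The labelled site was tested per probe set with limma 3.58.1 in R 4.3.3 (lmFit, eBayes, two-sided, Benjamini-Hochberg adjustment), which was checked on simulated data. Named were all measured HOX genes, the 15 others furthest apart in each direction, up to 6 per list of 39, and 10 per direction for the site within sets. The members and lists were chosen with earlier results of these data known.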

Additional observations from a re-analysis of the deposited data

How the results depend on the processing

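The 94 genes at least 1 unit apart became 290 at 0.5 units, 15 at 2 units and 172 when all probe sets were counted. They became 293 with both mandibular 2 and tibial 3 left out, an alternative chosen after seeing the data. Leaving out 1 array at a time gave 109 to 260, the highest without mandibular 2, and 145 without tibial 2. The 2394 genes without overlap became 5121 over all probe sets and 4381 without both arrays, and 3085 to 3933 with 1 array left out (3769 without mandibular 1, 3933 without tibial 2). Fewer arrays separate more easily by construction. All of the 94 genes passed a filter of 5 units on the highest array, which 8489 of 10877 genes passed. With arrays centred on their medians 92 genes were at least 1 unit apart, and of the genes without overlap the share higher above 7 was 41% against 45.7%. No separation of the 94 was lost under centring or with another probe set. For 26 of the 94 the separation grew at least 1.5 times without mandibular 2.

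The limma calls for the labelled site stayed at 0 under trend, array weights, the filter and centring. Leaving out 1 array gave 0 to 2 (1 without tibial 1, 2 without tibial 3). Within the sets every alternative gave 0. Deviations of arrays with the same number from their site means correlated at -0.033, 0.212 and 0.473 for numbers 1, 2 and 3. Both arrays numbered 2 were in the set above 7 and both numbered 3 in the set below 7. These correlations therefore cannot tell a shared pig from a shared set. The numbers were not taken as pairs in the main fits, since no label ties them to a pig. With the replicate block the calls were 0 for the site, with 1511 at an unadjusted p under 0.05, and 0 within the sets, with 2022. Low levels are limited by the missing detection calls.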
